A study of Homo sapiens with 2 samples.

Results

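The genes described here are the WNT ligands and Frizzled (FZD) receptors of a table that compares human embryonic stem cells with and without knockdown of the transcription factor TFCP2L1. Members were the rows whose symbol begins with WNT or FZD followed by a digit, and 12 of the 2005 listed genes met this rule. They comprise 8 ligand genes (WNT3, WNT3A, WNT4, WNT5A, WNT5B, WNT8A, WNT8B and WNT10B), 3 receptor genes (FZD2, FZD8 and FZD10) and 1 long noncoding RNA, FZD10-AS1, which carries the receptor's name but encodes no receptor. Humans have 19 WNT and 10 FZD genes, so 11 of these 29 had a row, and the level of the others is not analysed here.

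WNT proteins are secreted, lipid-modified ligands that bind the extracellular cysteine-rich domain of Frizzled receptors. With the co-receptors LRP5 and LRP6 this binding stabilises beta-catenin, which then acts with TCF/LEF factors on target genes, while other ligands and receptors, such as WNT5A with ROR2, act on cell polarity and movement without beta-catenin. In the embryo WNT3 is needed for the primitive streak to form, and in cultured human embryonic stem cells WNT signals are a common means of starting mesendoderm differentiation.

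Both libraries came from HES2 cells, an established human embryonic stem cell line. One culture was infected with a scramble lentivirus and the other with a Tfcp2l1 knockdown lentivirus (shRNA), and both were then grown for 3 passages in basal medium that held a serum replacement (KSR, 10%) and the growth factors FGF2 and Activin A, each at 10 ng/ml. FGF2 and Activin A, which sustains the undifferentiated state at some doses and favours endoderm at others, were thus present in the control too. Each group was 1 library of a whole culture, with no statement of clones or of the number of hairpins in the sources used here, so no difference has a replicate check and each comparison is between these 2 libraries. In such bulk RNA, a larger share of cells of one type and more RNA per cell cannot be told apart.

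The table is limited to genes that the authors called, each at least 2-fold different, so that a member is listed at all was part of the authors' call and is no finding. Depth was about 23440000 reads (scramble) and 22700000 reads (knockdown), as inferred from the deposited values. TFCP2L1 itself was at 3.19 and 0.33 FPKM (fragments per kilobase of gene, scaled to library size), on 692 and 69 inferred reads, which is 9.70-fold lower with a counting interval of 7.56 to 12.6. As background for the marker counts that follow, 5.86% of the genes that the authors tested were listed as higher and 4.98% as lower. Among all listed genes, 54.1% were higher. Of 10 markers of undifferentiated cells 2 had a row, SOX2 and PODXL, both lower, with a summed level of 402 (scramble) and 165 FPKM (knockdown). POU5F1 and NANOG had no row. Of 10 primitive streak and mesendoderm marker symbols, among them T and TBXT for the same gene, 7 had a row, 6 of them higher. The summed level of the 7 was 26.9 and 530 FPKM. All 7 definitive endoderm markers had a row and were higher, with a summed level of 8.49 and 958 FPKM. CER1 made up most of both sums, at 6.11 and 799 FPKM, and SOX17 was at the lowest listed value in the scramble library. COL1A1 was the listed one of 8 fibroblast markers, at 110 and 24.4 FPKM. Of 6 neuroectoderm markers 3 had a row, 2 higher and 1 lower, summing to 120 and 261 FPKM. In the knockdown library 1 of them, at 252 FPKM, made up nearly all of that sum. SIX3 was at the lowest listed value in the scramble library. The streak and endoderm markers moved with the WNT and FZD levels described next, and their part in them was not tested.

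Of the 12 members, 10 were higher and 2 were lower in the knockdown library. Counting only genes that reach 1 FPKM in either library, and with a pseudocount of 0.1 FPKM on each level, 9 were at least 2-fold higher and 1 was at least 2-fold lower. The background is 40.8% of all listed genes higher and 35.4% lower by the same rule. The members' median log2 ratio on that scale was 1.91. By direction alone, 54.1% of all listed genes were higher. The median of all listed genes, 1.01, therefore lies near the authors' 2-fold limit by construction and is no typical size of change. Inferred reads over both libraries had a median of 247 for the members and 272 for all listed genes. Ratios of single genes from here on are those of inferred reads unless FPKM is named, knockdown over scramble and scaled by depth. Bounds, where given, are the 95% Clopper-Pearson bounds of the counting error. Ratios of summed levels are of FPKM and have no bounds. Among the genes that the authors tested, 5.86% were listed as higher and 4.98% as lower. False discovery rates of the members in the authors' deposited table ran from 6.22e-135 (FZD2) to 3.39e-05 (WNT4), and these compare the reads of 2 libraries, not the conditions.

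**Figure D1:**
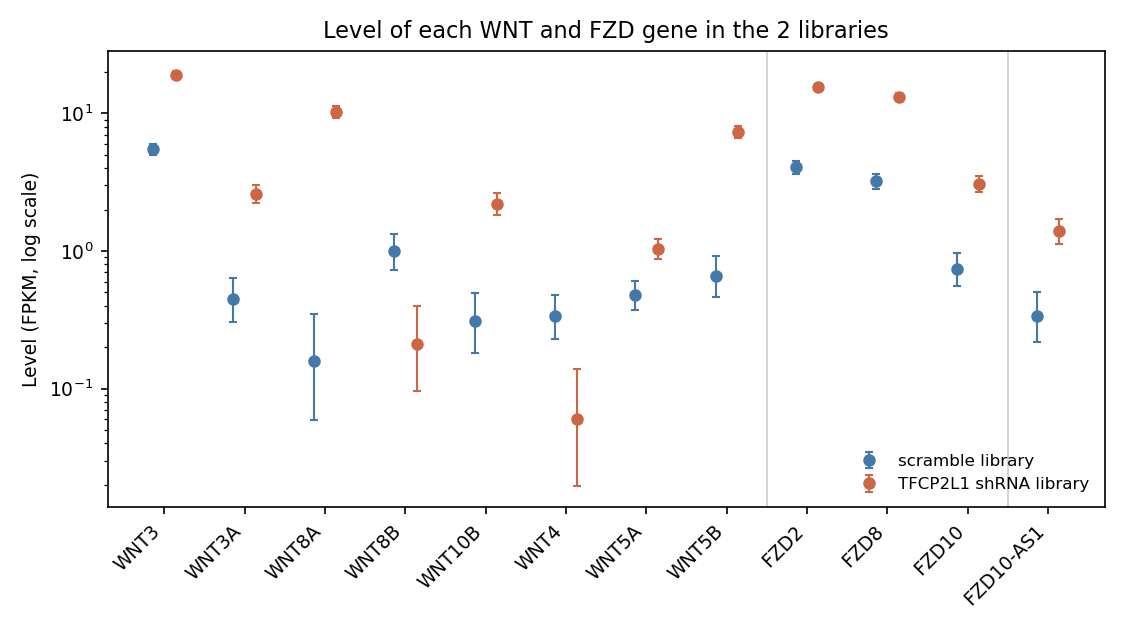
Level of each gene in FPKM (log axis) in the scramble library (blue) and the TFCP2L1 shRNA library (orange), with exact 95% Poisson intervals of the inferred reads, which cover counting error only. WNT3 is the highest gene in both libraries, at 5.50 and 19.2 FPKM, and WNT4 and WNT8B are the genes that are lower in the knockdown library.

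WNT3, the ligand of primitive streak formation, was the most abundant listed ligand in both libraries. Its level was 5.50 FPKM in scramble cells and 19.2 FPKM after knockdown, on 428 and 1444 reads. The ratio was 3.49 (3.13 to 3.90). The scramble culture thus already held WNT3 transcripts, well above the next listed ligand, WNT8B, at 1.00 FPKM.

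WNT8A, a beta-catenin-activating ligand that is expressed in the early embryo around gastrulation, had the highest ratio of all members. Its level was 0.16 FPKM in scramble cells, the lowest of the listed members, and 10.3 FPKM after knockdown. The authors' p-value corresponds to 6 and 417 reads, a ratio of 71.9 (32.7 to 197). With 7 scramble reads, the whole number nearest to the deposited level, the ratio was 61.6 (29.6 to 154). Ranked by log2 ratio with the pseudocount, WNT8A was at place 24 among the 2005 listed genes. The range of the interval comes almost wholly from the few scramble reads.

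WNT3A, the closest relative of WNT3 and the ligand most used to activate beta-catenin in culture, was at 0.45 and 2.62 FPKM on 31 and 174 reads. Its ratio was 5.81 (3.94 to 8.80), and its interval did not overlap that of WNT3. WNT10B, another ligand of the beta-catenin branch, was at 0.31 and 2.20 FPKM on 17 and 115 reads, a ratio of 6.997 (4.18 to 12.4). Both were under 0.5 FPKM in the scramble library and above 2 FPKM in the knockdown library.

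WNT5A and WNT5B are close relatives that act mainly without beta-catenin, on cell polarity and migration. WNT5B was at 0.66 and 7.35 FPKM on 36 and 378 reads, a ratio of 10.9 (7.70 to 15.7). WNT5A was at 0.48 and 1.04 FPKM on 69 and 145 reads, a ratio of 2.17 (1.62 to 2.94). In the scramble library the counting intervals of the pair overlapped, whereas in the knockdown library WNT5B stood well above WNT5A, and the intervals of their ratios did not overlap. The log2 ratio of WNT5A with the pseudocount was 0.97, which is why it is not among the 9 genes counted as at least 2-fold higher, and its interval reaches below 2.

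WNT4 and WNT8B were the 2 lower ligands. WNT8B, a relative of WNT8A known from the developing forebrain, was at 1.00 and 0.21 FPKM on 45 and 9 reads, which is 4.83-fold lower (2.33 to 11.2). WNT4, known from kidney and gonad development, was at 0.34 and 0.06 FPKM on 31 and 5 reads, 5.99-fold lower (2.31 to 19.7). That neither interval includes 1 follows from the authors' call, since the reads were inferred from the p-values of that call. Both genes rest on fewer than 10 knockdown reads, and WNT4 was under 1 FPKM in both libraries. The WNT8 pair thus stood on opposite sides, with WNT8B above WNT8A in the scramble library and far below it in the knockdown library.

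**Figure D2:**
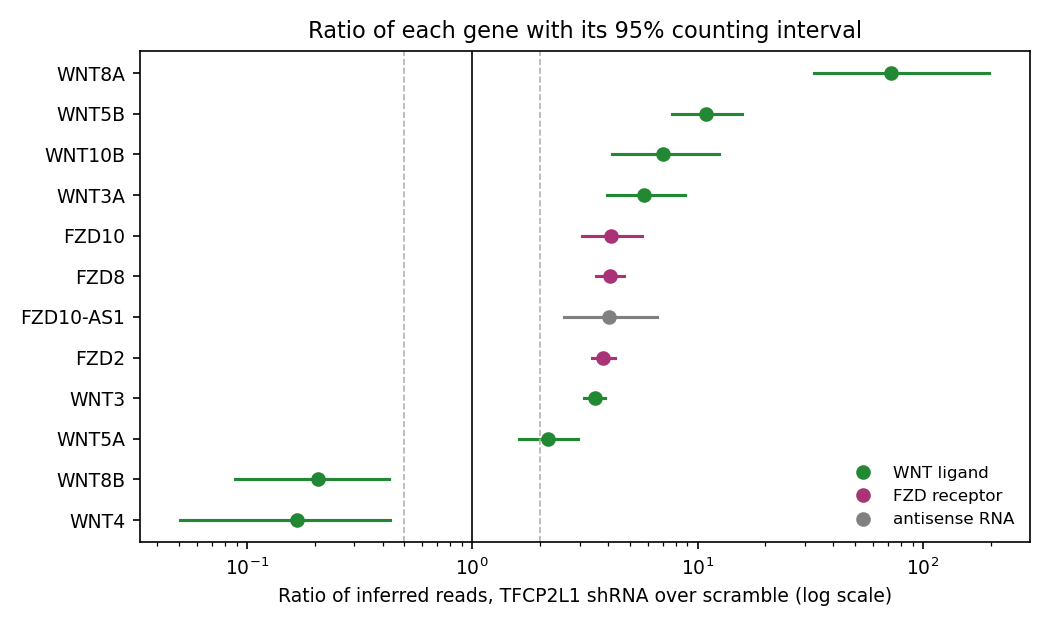
Ratio of inferred reads, TFCP2L1 shRNA over scramble (log axis), with 95% Clopper-Pearson bounds that cover counting error only; the solid line marks no difference and the dashed lines 2-fold. WNT8A is farthest to the right at 71.9, the 3 receptors lie between 3.81 and 4.14, and WNT8B and WNT4 lie to the left at 0.207 and 0.167.

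The start regions of the WNT8 pair had the fewest CpG dinucleotides among the members with a sequence. Windows from 250 bases before to 50 after the start were found in RefSeq (build GRCh38.p14) for 8 of the 12 members, 10 windows in all. WNT10B, FZD2, FZD10 and FZD10-AS1 had none. WNT8A and WNT8B had 4 CpG dinucleotides each, WNT5B 10 and 7 in its 2 windows, WNT5A 22 and 21, WNT3 28, FZD8 31, WNT4 47 and WNT3A 49. Over all 35116 windows the median was 14, with quartiles at 4 and 28. The highest ratio and one of the lower genes thus shared the fewest CpG, and WNT4 and WNT3A, which differed in direction, had the most. The 250 bases before the start are printed for both WNT8 genes and, for contrast, for WNT3A, 5′ to 3′, with each CpG in capitals.
WNT8A, chr5:138083783-138084032, plus strand: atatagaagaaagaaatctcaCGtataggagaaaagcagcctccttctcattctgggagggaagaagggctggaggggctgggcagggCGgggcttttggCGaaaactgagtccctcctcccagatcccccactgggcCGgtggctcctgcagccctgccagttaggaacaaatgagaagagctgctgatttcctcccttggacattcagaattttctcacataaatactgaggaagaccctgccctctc
WNT8B, chr10:100462759-100463008, plus strand: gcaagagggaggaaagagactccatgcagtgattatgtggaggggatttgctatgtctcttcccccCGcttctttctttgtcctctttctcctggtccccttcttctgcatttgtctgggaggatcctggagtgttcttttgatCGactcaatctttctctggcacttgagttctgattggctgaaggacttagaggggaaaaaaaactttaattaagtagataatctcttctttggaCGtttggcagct
WNT3A, chr1:228006748-228006997, plus strand: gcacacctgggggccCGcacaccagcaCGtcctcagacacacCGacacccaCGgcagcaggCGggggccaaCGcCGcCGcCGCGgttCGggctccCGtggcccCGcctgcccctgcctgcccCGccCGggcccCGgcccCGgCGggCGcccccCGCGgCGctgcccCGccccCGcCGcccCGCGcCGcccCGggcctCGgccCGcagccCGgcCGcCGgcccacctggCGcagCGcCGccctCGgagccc
These stretches hold 4, 3 and 38 CpG, so the 2 ligands of the WNT8 group have sparse starts and WNT3A a dense one.

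TCF/LEF factors, the nuclear partners of beta-catenin, bind sites with a CTTTG core, and the windows were searched on both strands for CTTTGAT and CTTTGTT. One of the 10 windows, that of WNT3, had a match, and 7.61% of all windows of that length hold one. The match begins at base 20 of the WNT3 transcript and is shown in capitals within 30 bases, because WNT3 is the most abundant listed ligand in both libraries.
WNT3, chr17:46818655-46818684, minus strand: tctcaagtggaCTTTGTTccaactattggg
The T-box core AGGTGTG was found in the window of WNT3A, close to its far upstream end on the minus strand, and in 4.59% of all windows. A match describes these letters only.

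The 3 listed receptors had nearly equal ratios. FZD2, a receptor that takes part in both beta-catenin and polarity signalling, was at 4.05 and 15.5 FPKM on 358 and 1320 reads, a ratio of 3.81 (3.39 to 4.30). FZD8, which belongs with FZD5 to the group that binds WNT3A tightly, was at 3.21 and 13.1 FPKM on 235 and 929 reads, a ratio of 4.09 (3.54 to 4.74). FZD10, which belongs to the group of FZD4 and FZD9, was at 0.74 and 3.06 FPKM on 56 and 224 reads, a ratio of 4.14 (3.07 to 5.65). The 3 intervals overlapped one another. The order FZD2, FZD8, FZD10 was the same in both libraries, and the intervals of the levels of FZD2 and FZD8 overlapped in the scramble library and not in the knockdown library.

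FZD10-AS1, the noncoding RNA named after FZD10, was at 0.34 and 1.39 FPKM on 24 and 94 reads, a ratio of 4.05 (2.57 to 6.63), which overlaps that of FZD10. The strand setting of the counting is not given in the sources used here, and without strand, reads of a gene and an overlapping antisense partner cannot be told apart. Sequence shared with other genes was small for most members. Of the 31-base words of the longest annotated FZD2 transcript (GENCODE 29), 7.20% also occur in other genes, among them FZD7, FZD1 and FZD5, and FZD8 had 2.08%, shared with genes that include FZD5 and FZD7. The other annotated members, 9 in all, had at most 1.26% (WNT4), and FZD10-AS1 was not matched there. WNT4 also overlaps an exon of an unnamed locus on the opposite strand, and FZD8 overlaps MIR4683 on the same strand. No exon overlap was listed there for FZD10, and none could be looked up for FZD10-AS1.

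Set in order of level per length, WNT3, FZD2 and FZD8 were the top 3 in both libraries. In the scramble library these 3 stood above 3 FPKM and the other 9 lay at 1.00 FPKM or less. From WNT8B down to WNT8A each gene's counting interval overlapped that of the next, so the order among those 9 is not resolved between neighbours. In the knockdown library WNT8A and WNT5B came next after these 3, and the first 6 places were separated by intervals that did not overlap from one gene to the next. FZD10, WNT3A and WNT10B followed, with overlapping intervals between neighbours, then FZD10-AS1 and WNT5A, again overlapping, and last WNT8B and WNT4.

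Summed over the 8 ligands, the level was 8.90 FPKM in scramble cells and 42.9 FPKM after knockdown, a ratio of 4.82. Without WNT8A the ratio of the sums was 3.74. For the 3 receptors the sums were 8.0 and 31.6 FPKM, a ratio of 3.95. The number of ligands at 1 FPKM or more was 2 in the scramble library (WNT3 and WNT8B) and 6 in the knockdown library. WNT3 held 61.8% of the ligand sum in scramble cells and 44.7% after knockdown. WNT8A held 1.80% and 23.9%, and WNT5B 7.42% and 17.1%, while WNT8B went from 11.2% to 0.489%. Of the added ligand level, WNT3 made up 40.2%, WNT8A 29.7% and WNT5B 19.7%. The receptor makeup hardly differed: FZD2 held 50.6% and 48.8% of the receptor sum, FZD8 40.1% and 41.5%, and FZD10 9.25% and 9.67%. Over ligands and receptors together, WNT3 held 32.5% and 25.7%, WNT8A 0.947% and 13.8%, and FZD2 24.0% and 20.7%. These sums cover listed genes only.

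By branch, the 5 ligands WNT3, WNT3A, WNT8A, WNT8B and WNT10B summed to 7.42 and 34.5 FPKM, a ratio of 4.65. WNT4, a lower ligand, was left out of both branch sums. WNT5A and WNT5B together were at 1.14 and 8.39 FPKM, a ratio of 7.36, of which WNT5B made up most. Both sums were higher in the knockdown library. Each holds only ligands that the authors called as different, so the sums do not describe the branches as a whole.

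**Figure D3:**
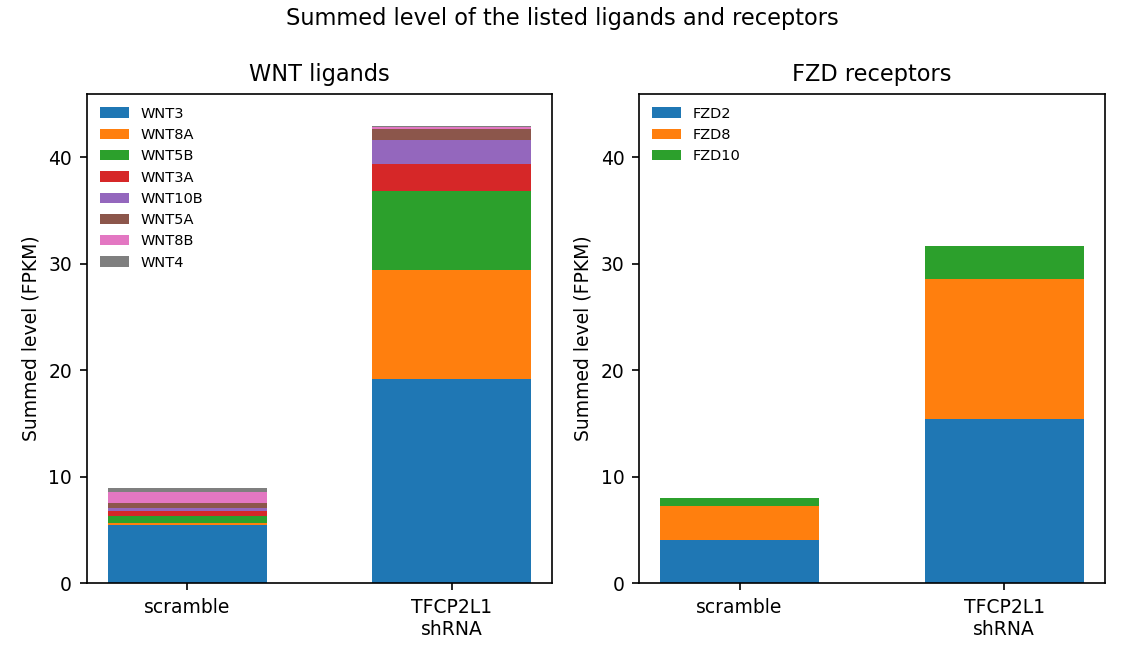
Summed FPKM of the 8 listed WNT ligands (left) and the 3 listed FZD receptors (right) in each library, stacked by gene. The ligand sum is 8.90 and 42.9 FPKM with WNT8A and WNT5B widening next to WNT3, and the receptor sum is 8.0 and 31.6 FPKM with FZD2, FZD8 and FZD10 in similar proportions.

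The other genes of the pathway were taken from 8 lists by role with 115 gene symbols. Some of these symbols name the same gene, such as WLS and GPR177, so fewer genes than symbols were covered. Of these, 27 had a row, 22 higher and 5 lower, where 54.1% of all listed genes were higher. Their median log2 ratio was 1.62, and that of all listed genes (1.01) is set by the authors' filter and gives no scale for it. By the 2-fold rule used for the members, 20 were higher and 3 lower, beside 40.8% and 35.4% of all listed genes. These lists were drawn up with earlier results of these data known, and some of the genes answer to WNT signals themselves.

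On the list of co-receptors and other proteins of WNT reception, 2 of 13 symbols were higher and 1 lower, ROR2 being the listed receptor. ROR2, a receptor tyrosine kinase for WNT5A, was at 6.44 and 22.1 FPKM, a ratio of 3.86 by reads (3.51 to 4.25) and of 3.42 by FPKM, which lies outside that interval. MCC, a cytoplasmic candidate regulator of beta-catenin, was at 1.33 and 6.16 FPKM, a ratio of 4.56 (3.98 to 5.24). GPC3, a cell surface proteoglycan that binds WNT and Frizzled, was at 47.5 and 18.3 FPKM, 2.59-fold lower (2.40 to 2.79). Of 7 symbols of WNT processing and secretion, WLS, the carrier that brings WNT proteins to the cell surface, had a row. It was at 1.75 and 6.37 FPKM with a ratio of 3.84 (3.08 to 4.82).

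Of 14 secreted antagonists, 4 were higher and 2 lower. DKK1, which blocks LRP5 and LRP6, was at 0.10 and 15.4 FPKM on 4 and 609 reads, a ratio of 157 (61.2 to 580). DKK4, its relative, had no scramble reads and was at 26.9 FPKM after knockdown. Against a floor of 3 scramble reads it was 162-fold higher. The lower 95% bound of the ratio, computed without that floor, was 131. CER1, an inhibitor of NODAL and BMP ligands whose frog relative also binds WNT, was at 6.11 and 799 FPKM, and FRZB, a soluble Frizzled-like decoy, was at 0.08 and 0.68 FPKM. The lower ones were SFRP5, another Frizzled-like decoy, at 4.77 and 0.95 FPKM (5.03-fold lower, 3.56 to 7.28) and WIF1, which binds WNT directly, at 0.75 and 0.24 FPKM (3.06-fold lower, 1.57 to 6.44). DKK1, DKK4 and CER1 had higher ratios than every WNT and FZD gene, though the counting intervals of all 3 overlapped that of WNT8A.

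Membrane antagonists had 3 of 11 symbols listed, all higher. APCDD1, a membrane inhibitor of WNT signalling, was at 1.09 and 21.3 FPKM, a ratio of 19.6 (15.3 to 25.7). APCDD1L was at 0.86 and 4.96 FPKM and TMEM88, which binds Dishevelled, at 2.29 and 7.24 FPKM. Of 8 genes of the R-spondin group, the receptor LGR5 was at 0.01 and 1.03 FPKM on 1 and 107 reads, a ratio of 111 (19.4 to 4411), and LGR6 was 3.11-fold lower (1.93 to 5.21) at 0.95 and 0.31 FPKM. None of the 4 R-spondin ligands had a row.

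Of 26 genes of the cytoplasmic signal and the destruction complex, 3 had a row and were higher. AXIN2, a feedback member of the destruction complex, had a ratio of 2.60 (2.36 to 2.87), DACT1, a Dishevelled-binding regulator, 2.80 (2.54 to 3.07), and DACT2 5.06 (3.88 to 6.69). Of 13 nuclear factors 3 were higher. TCF7 was at 6.34 and 13.8 FPKM (1.95, 1.76 to 2.15), LEF1 at 0.19 and 1.02 FPKM (5.52, 3.15 to 10.3), and PYGO1, which was under 0.3 FPKM in both libraries, had a ratio of 3.65 (2.03 to 6.98). By FPKM the ratio of TCF7 was 2.18, outside its interval by reads.

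Of 23 genes of the planar cell polarity and calcium branch, 5 were higher and 1 lower. VANGL1, a core polarity membrane protein, was at 3.30 and 14.5 FPKM, a ratio of 4.39 (4.03 to 4.78). CELSR1, a polarity cadherin, was at 5.06 and 11.3 FPKM (2.20, 2.07 to 2.35). ANKRD6, a Dishevelled-binding protein, had a ratio of 2.24, CAMK2D, a calcium-dependent kinase, 2.18, and PRICKLE4 2.79. DAAM2, a formin downstream of Dishevelled, was lower at 2.12 and 0.93 FPKM, 2.28-fold (1.85 to 2.82).

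**Figure D4:**
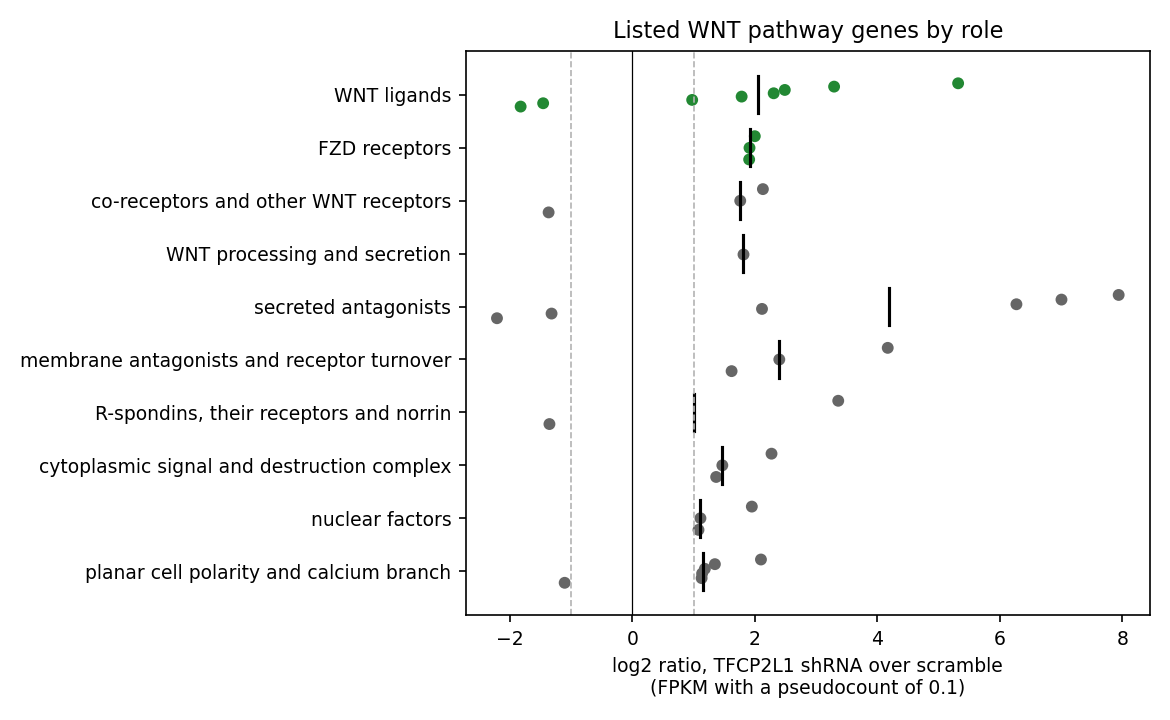
The log2 ratio, TFCP2L1 shRNA over scramble, of each listed gene of 10 lists by role (points; WNT and FZD genes in green), from FPKM with a pseudocount of 0.1; the black bars are list medians and the dashed lines mark 2-fold. The ligand and receptor medians are 2.04 and 1.91, and the secreted antagonists reach furthest, from -2.21 (SFRP5) to 7.94 (DKK4).

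Protein-coding neighbours of the members, by RefSeq gene order, mostly had no row. So did most of the 18489 genes that the authors tested, of which 5.86% were listed as higher and 4.98% as lower. The 11 ligand and receptor genes lie on 6 chromosomes and have 22 neighbours in all, of which 1 was listed. It is NME5, next to WNT8A on chromosome 5, at 0.18 and 1.27 FPKM. WNT3 lies beside WNT9B on chromosome 17 and WNT10B beside WNT1 on chromosome 12, and in both pairs one gene had a row and the other had none.

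By the distance between pairs of log2 levels over the 2 libraries, the genes most like WNT3 were FGF19 (5.55 and 19.2 FPKM), STRA6 (5.33 and 17.8 FPKM) and PIGQ (6.15 and 19.4 FPKM), at distances of 0.0138, 0.118 and 0.159. Those most like FZD2 were FAM159B (3.89 and 17.2 FPKM), NCOA5 (4.03 and 17.3 FPKM) and TNRC18 (4.71 and 16.2 FPKM). With 2 libraries such likeness is easily had.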

How the data were processed

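RNA-seq of 2 libraries was analysed, each made from 1 ug of total RNA and read on a BGISEQ-500 instrument, as the labels' protocols state. The submitters' processing notes name Bowtie 0.12.2 and the build hg19. Which counter, quantifier, test, strand setting or filter was used is not given in the sources used here.

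The authors' deposited table gives levels headed expression, read here as FPKM from how they scale with reads and length (RPKM cannot be told apart), with a lowest value of 0.01. The log2 ratio deposited by the authors equals log2 of knockdown over scramble level. The authors' p-value and false discovery rate compare the libraries, and their quotient gives whole ranks for 18489 tested genes. The largest deposited rate is 0.00099.

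Whole reads were inferred as the pair that fits both levels (within rounding and 2%) and the authors' p-value under the Audic and Claverie Poisson model, within 0.0002 on its natural log, with depth fitted on 561 genes and a length offset of 67 bases. This gave pairs for 1541 of 1926 genes with a p-value above 0. For the rest, a second pass took levels within 15% and a tolerance of 2e-05, and found 289 more. This pass, which supplied WNT8A, ROR2, WLS, TMEM88, DACT2, TCF7 and CAMK2D, and the WNT8A ratio from the level were chosen after seeing the data. The other 175 genes, among them CER1 and VANGL1, were estimated from the level. On a table of 2005 genes simulated under the same Poisson model, 100.0% of 1920 pairs were those drawn, and 192 of 200 intervals held the true ratio; this checks the computation and not whether the model fits the deposited table.

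Ratio intervals are Clopper-Pearson bounds (95%, conditional binomial). Without molecular identifiers, reads cannot be taken as independent molecules, so only counting error is covered. No test of the conditions was made with 1 library each. The members and lists were chosen with earlier results of these data known. Named genes were all members, every listed gene of the pathway lists, TFCP2L1, and the 3 genes nearest in level to WNT3 and to the FZD gene highest in the scramble library. Alternatives were other pseudocounts, level minimums, fold limits and intervals. Python 3.11.15 and scipy 1.17.1 were used.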

Additional observations from a re-analysis of the deposited data

How the results depend on the processing

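All 12 members kept their direction with pseudocounts of 1 and 0.01 FPKM, with the authors' deposited log2 ratios and with inferred reads. That was fixed in advance and is no check. A pseudocount added to both levels cannot change the sign. The deposited log2 ratios come from the same levels, and the reads were fitted to them. Against the main count of 9 members at least 2-fold higher, 4 were at least 4-fold higher by FPKM with a pseudocount of 0.1. Against 1 at least 2-fold lower, 0 were lower with a pseudocount of 1 FPKM and 0 by a 4-fold limit with that of 0.1. With no minimum level 2 were lower, where WNT4 joined WNT8B. These changes follow from the construction of each setting. By inferred reads FZD8 (4.09), FZD10 (4.14) and FZD10-AS1 (4.05) also had ratios above 4. By the same measure WNT8B was 4.83-fold and WNT4 5.99-fold lower. The counting intervals of these 5 genes reach below 4-fold. So does that of WNT3A (3.94 to 8.80), which is among the 4 counted by FPKM. The members' median log2 ratio was 1.91 and lay between 1.30 (pseudocount of 1 FPKM) and 2.03 over its settings. With a pseudocount of 1 FPKM the log2 ratios of all 12 members were closer to 0 and lay outside their counting intervals, with WNT8A at 3.28 and WNT5A at 0.46. Depth limits the low genes most: WNT8A rests on 6 scramble reads, and WNT4 and WNT8B on 5 and 9 knockdown reads. No paired analysis was possible because each group had 1 library. Leaving out a replicate was not possible for the same reason.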
